A study of Mus musculus with 9 samples.

Results

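The ribosome is built from a small and a large subunit, each a scaffold of ribosomal RNA covered by many small proteins, and nearly every one of these proteins is needed in a single copy per particle. Their mRNAs are among the most abundant of any cell, and most begin with a C followed by a run of pyrimidines, the terminal oligopyrimidine (TOP) tract through which mTOR signalling sets their translation. In the small intestine, cells divide in the crypts and mature as they move onto the villi, and ribosome production is known to be high in dividing cells.

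The genes of the cytosolic ribosomal proteins were read here as a family. They were taken by name: every gene on the array whose name begins with Rpl or Rps followed by a digit or the letter p, without the Rps6k kinases. This gave 82 genes of the 28479 on the array, 30 of the small subunit, 43 of the large subunit, the 3 stalk proteins, 5 paralogs and Rps19bp1, a Rps19-binding protein that is no ribosomal protein. They were read by 136 probes, and the brightest probe of a gene, by its mean over the arrays, stands for the gene. All 82 were among the 19995 genes tested, and 81 of them were above background on every array.

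RNA came from epithelial cells sorted from C57BL/6 mice, with 3 arrays for each of 3 groups. MHCIIhi cells were small intestinal cells with high Epcam and high MHC class II, and MHCIIlo cells were small intestinal cells with intermediate amounts of both. Kidney cells were Epcam-positive. All gates left out CD45-positive and Fluorogold-positive cells, the labels name no treatment, and they give no age. Each intestinal replicate pooled 3 mice and each kidney replicate pooled 4. Pools were treated as independent replicates, and the sample titles do not say whether both intestinal gates came from the same mice. A gate can hold several cell types, and fewer cells of a type cannot be told apart from less RNA per cell.

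Values are levels, the log2 processed signal of a probe minus the 75th percentile of its array, which ranged from 101 to 770 units between arrays. The 3 kidney arrays lay on a slide of their own, so that slide and organ cannot be told apart. MHCIIhi 1 and MHCIIhi 2 shared a slide, and MHCIIhi 3 lay with the 3 MHCIIlo arrays. Kidney tubule markers were above background for 8 of 8 genes on the kidney arrays, with a summed level of 9.80 to 9.88, against −0.95 to 0.51 on the intestinal arrays. Of the 6 intestinal epithelium markers, Cdx1 and Cdx2 were not above background on the kidney arrays.

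By the 75th percentile the family stood highest in MHCIIhi cells, lower in MHCIIlo cells and lowest in kidney cells, while after quantile normalization the median difference of kidney minus MHCIIlo turned to 0.52. The median level of its 76 core members, those of the subunits and the stalk, in MHCIIhi cells was 7.24, 7.38 and 7.00. It was 6.64, 6.16 and 6.28 in MHCIIlo cells and 5.94, 5.91 and 5.84 in kidney cells. These ranges did not overlap between any of the groups. As a share of the summed processed signal of an array, the members took 10.3%, 11.0% and 8.33% in MHCIIhi cells, 5.82%, 4.08% and 4.35% in MHCIIlo cells and 5.67%, 5.62% and 5.22% in kidney cells. By this share, kidney lay within the range of MHCIIlo cells and not below it.

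**Figure D1:**
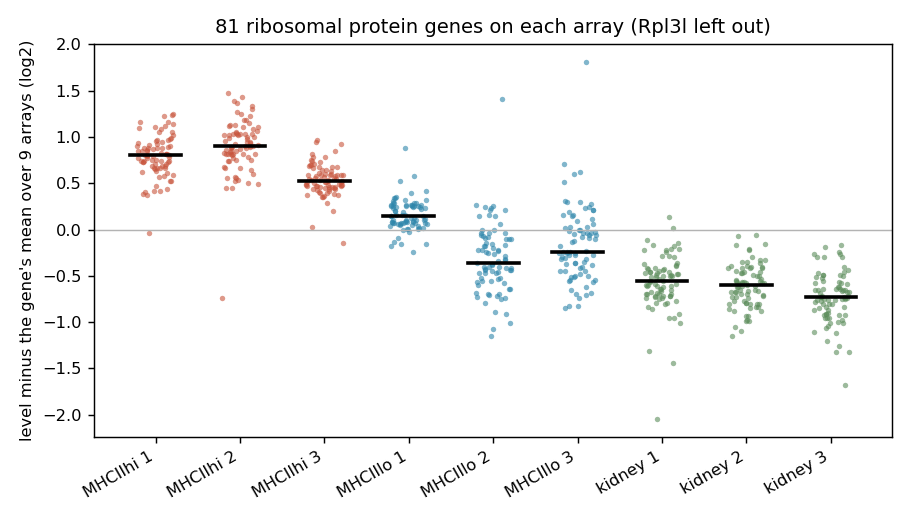
Level of 81 ribosomal protein genes on each of the 9 arrays, as the difference from the gene's own mean over the arrays (log2). Each point is a gene and each black bar the median of an array. Rpl3l, not above background on the intestinal arrays, is left out. The MHCIIhi arrays lie above 0 in the median, and the kidney arrays below it.

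MHCIIhi cells had higher levels than MHCIIlo cells for most of the family. Of the 82 members, 31 were higher in MHCIIhi cells by at least 1 on the log2 scale at an adjusted p below 0.05 and 1 was lower, against 15.1% and 16% of all genes tested. At the adjusted p alone, 66 members were higher and 1 lower, where 21.8% of all genes were higher and 28.2% lower. The median difference of the members was 0.91, against −0.23 over all genes tested, and 80 of 82 members had a positive difference. The values of the groups did not overlap for 75 members, as for 56.5% of all genes. The small subunit had a median difference of 0.97 (30 genes) and the large subunit one of 0.86 (43 genes).

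Part of the arrays shared a slide. MHCIIhi 3, the only MHCIIhi array on the slide of the MHCIIlo arrays, differed from their mean by a median of 0.74 over 76 core members, with a range from −0.84 to 1.40. In a limma fit with slide as a fixed block the median difference was 0.73, and 2 members were called higher, Rpl27a (1.40, adjusted p = 0.049) and Rpl12 (1.34, adjusted p = 0.036). In that fit MHCIIhi 3 alone carries the difference within a slide. Leaving out MHCIIlo 2 gave 19 members called higher, leaving out MHCIIlo 1 gave 42 and leaving out MHCIIhi 3 gave 41. The share of all genes called was not counted in these fits, so their counts cannot be set against it.

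**Figure D2:**
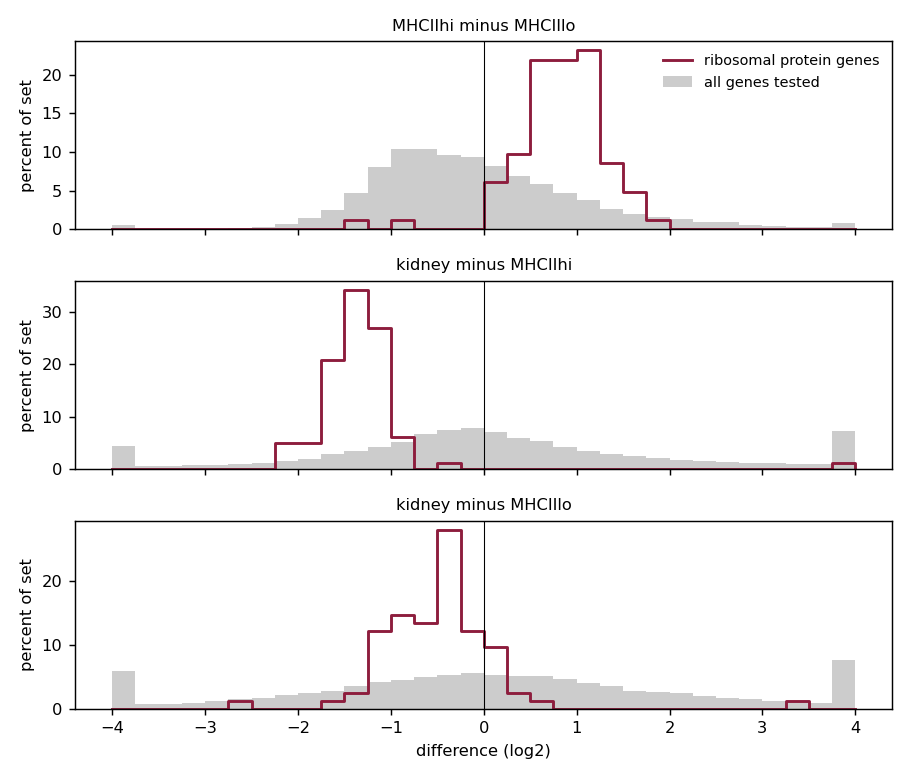
Distribution of log2 differences in the 3 comparisons, as percent of the 19995 genes tested (grey bars) and of the 82 ribosomal protein genes (line), in bins of 0.25, with the outermost bins holding all values beyond them. The members form narrow peaks, with medians of 0.91, −1.35 and −0.48, inside broader distributions of all genes.

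By its brighter probe, Rpl27a had the largest difference of the family between MHCIIhi and MHCIIlo cells. Its level was 4.05, 4.29 and 3.64 in MHCIIhi cells, 2.75, 1.86 and 2.10 in MHCIIlo cells and 2.76, 2.43 and 2.49 in kidney cells. By this probe all MHCIIhi values lay above all others, and the difference to MHCIIlo was 1.75 (SE 0.27, adjusted p = 0.0018). Kidney and MHCIIlo overlapped by it. The other Rpl27a probe, A_51_P418662, gave a smaller MHCIIhi minus MHCIIlo difference of 1.09. By that probe all kidney values lay below all MHCIIlo values, with mean levels of −1.06 and −0.06. Rpl12, a protein at the base of the stalk, stood at 7.95, 8.04 and 7.68 in MHCIIhi cells, 6.78, 6.03 and 6.20 in MHCIIlo cells and 5.99, 5.95 and 5.81 in kidney cells. Its 3 groups did not overlap, with a difference of 1.55 (SE 0.22, adjusted p = 0.0013) between the intestinal groups.

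Rpl3, which lies close to the peptidyl transferase centre, stood at 6.65, 6.82 and 5.94 in MHCIIhi cells and at 5.38, 4.62 and 4.77 in MHCIIlo cells. Rps6, the ribosomal substrate of the S6 kinases, stood at 5.81, 5.95 and 5.29 in MHCIIhi cells and at 4.73, 3.82 and 4.00 in MHCIIlo cells. In both, the MHCIIhi values lay above the MHCIIlo values on every array, by 1.54 (SE 0.30, adjusted p = 0.0044) for Rpl3 and 1.50 (SE 0.27, adjusted p = 0.0033) for Rps6. Rps15a (1.52), Rpl31 (1.49), Rps3a (1.43) and Rpl5 (1.39) were also called. Rps3a is now named Rps3a1, and Rpl5 enters the large subunit together with Rpl11 and a small ribosomal RNA.

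A few members did not move with the rest between the intestinal groups. Rpl41, the shortest ribosomal protein, stood at 8.71, 8.83 and 8.69 in MHCIIhi cells and at 8.63, 8.50 and 9.00 in MHCIIlo cells. Rpl38 stood at 8.20, 8.20 and 8.04 against 8.02, 7.94 and 8.19, and Rpl37a at 8.71, 8.75 and 8.76 against 8.54, 8.56 and 8.91. The groups overlapped in each, with differences of 0.03 (SE 0.20) for Rpl41, 0.10 (SE 0.15) for Rpl38 and 0.07 (SE 0.17) for Rpl37a that did not pass the test.

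Departure from the family was tested on levels from which the median level of the core members on the same array had been subtracted. Rpl41 (−0.82, adjusted p = 0.011), Rpl38 (−0.75, adjusted p = 0.0076) and Rpl37a (−0.77, adjusted p = 0.014) departed downward in MHCIIhi minus MHCIIlo. So did Rps27l, a paralog of Rps27, by −0.73 (adjusted p = 0.0040), Rps12 by −0.64 (adjusted p = 0.032) and the stalk protein Rplp1 by −0.53 (adjusted p = 0.034). In all, 10 members departed upward and 12 downward at the adjusted p alone, against 9.36% and 60.8% of all genes measured against the same median. Of these, 0 upward and 2 downward (Rpl21 and Rpl3l) reached a size of 1, against 6.44% and 48.6%. Rpl3l was above background on 0 of the 3 arrays of both intestinal groups and passed the filter through kidney, so its departure here is no measured difference.

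The stalk proteins, which recruit elongation factors to the ribosome, differed in size. Rplp0 was higher in MHCIIhi than in MHCIIlo cells by 1.23 (SE 0.25, adjusted p = 0.0058) and Rplp2 by 0.74 (SE 0.18, adjusted p = 0.012). For Rplp1 the difference was 0.32 (SE 0.16, adjusted p = 0.12). Rps27a, made as a fusion with ubiquitin, was higher by 1.15 (SE 0.20, adjusted p = 0.0032).

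**Figure D3:**
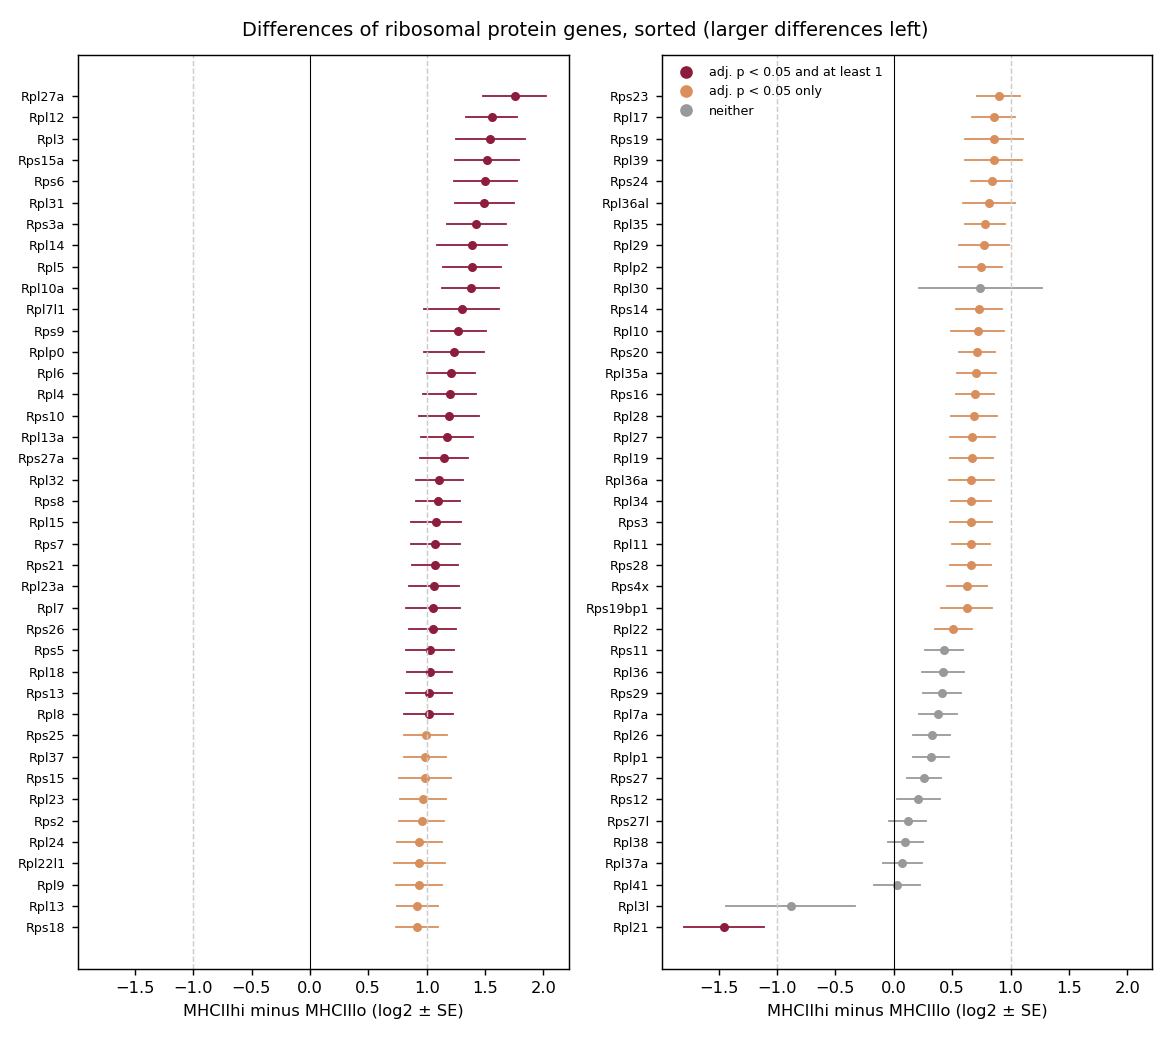
MHCIIhi minus MHCIIlo difference of 80 of the 82 members (log2, points) with its SE (lines), sorted from the largest (top left) to the smallest (bottom right). Rpl27a is at 1.75, Rpl41 and Rpl37a are near 0, and Rpl21 is at −1.45.

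Between the intestinal groups, the size of a member's difference went with the brightness of its probe. Over the 76 core members, the MHCIIhi minus MHCIIlo difference and the log2 mean signal of the probe had a Pearson r of −0.32 and a Spearman rho of −0.54. For kidney minus MHCIIhi these were 0.17 and −0.01, and for kidney minus MHCIIlo −0.19 and −0.42. The kidney values changed with the scaling. After quantile normalization r and rho were 0.64 and 0.46 for kidney minus MHCIIhi and 0.29 and −0.06 for kidney minus MHCIIlo. For MHCIIhi minus MHCIIlo they were then −0.25 and −0.51. These points share the same arrays, and brightness reflects the probe as well as the RNA. The 19 core members with the dimmest probes had a median MHCIIhi minus MHCIIlo difference of 1.20 and the 19 with the brightest one of 0.66. Among 35 genes with several probes above background on all arrays, the dimmest probe showed the larger difference than the brightest in 24 genes, with medians of 1.06 and 0.86, and in kidney minus MHCIIhi in 18. The part of brightness in the members' order was not tested beyond these values.

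Rpl21 was the only member called lower in MHCIIhi than in MHCIIlo cells, and its probes disagreed. The brighter probe, A_52_P258959, gave 3.08, 2.37 and 3.64 in MHCIIhi cells, 3.99, 4.52 and 4.92 in MHCIIlo cells and 1.66, 2.01 and 1.79 in kidney cells. The other probe, A_52_P653937, gave −0.81, −0.74 and −1.25 in MHCIIhi cells, −1.95, −2.83 and −2.48 in MHCIIlo cells and −1.33, −1.51 and −1.37 in kidney cells. No groups overlapped by either probe, and the order of the intestinal groups was opposite, with a difference of −1.45 (SE 0.34, adjusted p = 0.0098) by the first and 1.49 by the second. Before scaling, the processed signal of the brighter probe was 2694, 1920 and 2659 units in MHCIIhi cells, 2947, 2778 and 3047 in MHCIIlo cells and 1898, 2674 and 2659 in kidney cells, and these ranges overlapped between MHCIIhi and kidney cells.

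The same disagreement was found for a probe each of Rpl22l1, the paralog of Rpl22, and Rps4x, the X-linked form of Rps4. Rpl22l1 probe A_52_P65897 differed by −1.40 and Rps4x probe A_52_P780667 by −1.50 between MHCIIhi and MHCIIlo cells, where the brighter probes gave 0.94 and 0.63. The discordant probes of the 3 genes had in common that they were rich in G and C. They also shared targets other than curated RefSeq mRNAs: a predicted transcript (Rpl21), a cDNA clone (Rpl22l1) and an expressed sequence tag (Rps4x). The other probe of each gene was designed to a curated RefSeq mRNA. Which transcripts the discordant probes bound was not tested. The first 30 of the 60 bases of each probe are shown 5′ to 3′ for both probes of a gene, with every G and C in capitals, beside the mm8 position and strand order of the array annotation.

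Rpl21 A_52_P258959 (chr5:147143450-147143509, + strand): GGCaGCCCtCGGGCCttGtaaGaGCGCGCa
Rpl21 A_52_P653937 (chr5:147147040-147147099, + strand): GaGGGttCtCtaGaaGtaCtaCCtGtCtta
Rpl22l1 A_52_P65897 (chr3:28996692-28996751, + strand): GaGaaGGCGGtGGGaaGaGaGtCGGCCtGG
Rpl22l1 A_51_P218814 (chr3:28998348-28998407, + strand): GaaCttCGttatttCCaGattaGtCaaGat
Rps4x A_52_P780667 (no position in the annotation): CCaCaGaCCtGtCaCtGaCGaCCGaCaCaC
Rps4x A_51_P267995 (chrX:98387669-98387728, - strand): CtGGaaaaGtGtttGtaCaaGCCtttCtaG

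Over their whole length, G and C made up 75% of the Rpl21 probe, 63.3% of the Rpl22l1 probe and 61.7% of the Rps4x probe. These were the only 3 of 134 member probes tested with at least 60%, and the only 3 that were lower in MHCIIhi cells at an adjusted p below 0.05. The next highest share among member probes was 55.0%, and the median was 45.0%. Across all member and other probes that passed the same filter on background, the median MHCIIhi minus MHCIIlo difference was −0.05 for 11094 probes below 40% G and C, −0.24 from 40% to 50%, −0.50 from 50% to 60%, −0.67 for 234 probes from 60% to 70%, and −1.05 for 69 probes from 70% on. The kidney minus MHCIIlo medians over the same intervals ran from 0.44 to −2.08. Below 60%, the member probes showed little of this order between the intestinal groups, with medians of 0.99 (22 probes), 0.98 (69 probes) and 0.92 (39 probes). The threshold of 60% was chosen after the values were seen, and the part of base composition in these differences was not tested.

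**Figure D4:**
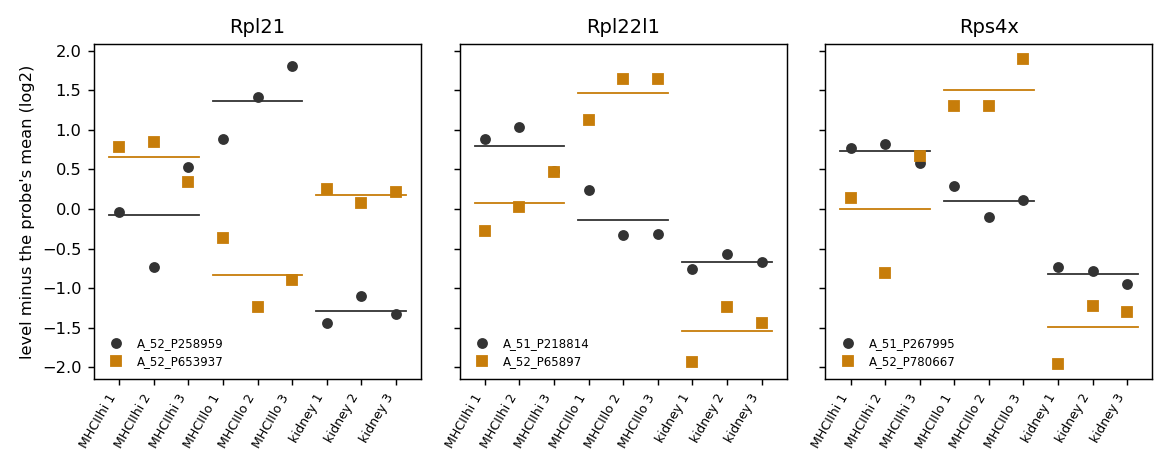
Levels of both probes of Rpl21, Rpl22l1 and Rps4x on the 9 arrays, each as the difference from the probe's own mean (log2), with lines at the group means. In each gene the probes order the means of the MHCIIhi and MHCIIlo groups oppositely.

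**Figure D5:**
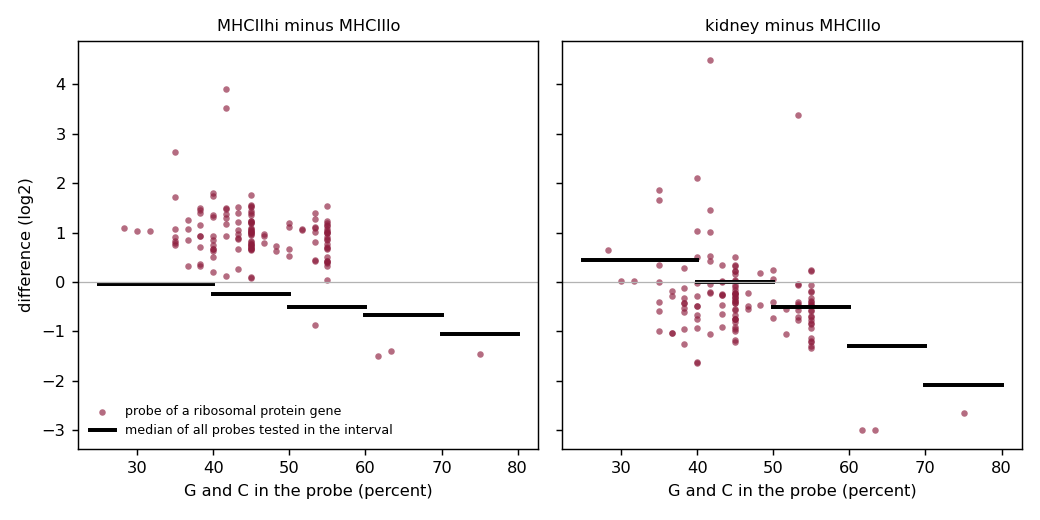
Difference of each member probe (points, log2) against its share of G and C, for MHCIIhi minus MHCIIlo and kidney minus MHCIIlo, with the median of all probes that passed the filter on background in intervals of that share (black lines). The 3 member probes above 60% lie at −1.40 to −1.50 on the left and at −2.66 to −3.01 on the right.

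Rps24 was measured by 3 probes that gave different sizes. The brightest, A_51_P312936, had a difference of 0.84 (SE 0.17, adjusted p = 0.0059) between MHCIIhi and MHCIIlo cells and of −0.75 (adjusted p = 0.0037) between kidney and MHCIIlo cells. The other probes were designed to cDNA clones and lie further along the chromosome in the array annotation. The beginnings of all 3 are shown in the same way, since they separate the groups differently. Rps24 is known for alternative splicing of its last exons, and which transcripts each probe bound was not tested.

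Rps24 A_51_P312936 (chr14:23324565-23325890, + strand): aaCaCaGaCtGGCaaGaCatGGCCtttatG
Rps24 A_52_P100002 (chr14:23327912-23327971, + strand): CaGGtataGttCaaGCtattCCGtaGatCa
Rps24 A_52_P537084 (chr14:23329232-23329291, + strand): GtCaaGaGCCtGaaCtGaGttGatCaaGtC

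Probe A_52_P100002 gave −0.90, −0.49 and −1.22 in MHCIIhi cells, −3.60, −4.97 and −4.59 in MHCIIlo cells and 0.05, −0.06 and 0.34 in kidney cells. It was above background on 1 of 3 MHCIIlo arrays, so that the group difference is a bound: at least 6.99-fold higher in MHCIIhi cells and at least 13.8-fold higher in kidney cells than in MHCIIlo cells. Probe A_52_P537084 gave 0.01, 0.23 and −0.66 in MHCIIhi cells, −2.21, −5.12 and −4.81 in MHCIIlo cells and −2.58, −2.66 and −2.52 in kidney cells, which is at least 8.4-fold higher in MHCIIhi than in MHCIIlo cells. By the first of these probes kidney cells stood highest, and by the second MHCIIhi cells did. A lower bound sets the mean of the brighter group against, per dim array, the higher of the probe's own value and the lowest value well above background.

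Rpl22, whose protein binds RNA outside the ribosome too, was also split. Probe A_51_P387878 was lower in kidney than in MHCIIlo cells by −1.20 (SE 0.16, adjusted p = 0.00015), while A_52_P391718 gave 2.35, 2.45 and 2.25 in kidney cells and 0.62, 0.07 and 0.08 in MHCIIlo cells, a difference of 2.10 in the opposite direction. For Rps20, probe A_52_P142346, above background on 1 of 3 MHCIIlo arrays, was higher in MHCIIhi than in MHCIIlo cells by at least 5.01-fold. The brighter A_52_P5210 differed by 0.71 there. Between kidney and MHCIIlo cells these probes went opposite ways. Kidney was at least 2.54-fold higher by A_52_P142346 and lower by −0.96 by A_52_P5210. Many ribosomal protein genes have near-identical processed copies in the genome, and which copies a probe bound was not tested.

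Kidney cells had lower levels than MHCIIhi cells for nearly the whole family. Of 82 members, 75 were lower and 1 was higher by at least 1 at an adjusted p below 0.05, against 22.6% and 26.1% of all genes tested. At the adjusted p alone, 79 were lower and 1 higher, where 31% of all genes were lower and 32.8% higher. The median difference was −1.35, against −0.01 over all genes. The difference was positive for 1 member, as for 49.7% of all genes, and the groups did not overlap for any of the 82 members, as for 72.4% of all genes. After quantile normalization the median was −0.64, against −0.01 over all genes, with 11 members lower and 1 higher. The share of all genes called was not counted there. Among members under a size of 1, Rps21 (−0.83), Rpl9 (−0.96) and Rps14 (−0.98) passed the test, and Rpl7l1 (−0.78, adjusted p = 0.062) and Rps19bp1 (−0.43, adjusted p = 0.11) did not pass it. The other Rps19bp1 probe, A_52_P474797, gave a larger difference of −0.93.

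Among the members lower in kidney, Rps19, a small subunit protein mutated in Diamond-Blackfan anaemia, had the largest difference by its brightest probe. It stood at 7.14, 7.07 and 6.96 in MHCIIhi cells, 6.44, 5.94 and 6.23 in MHCIIlo cells and 5.24, 4.99 and 4.36 in kidney cells. By this probe the groups did not overlap, and kidney was lower than MHCIIhi by −2.19 (SE 0.25, adjusted p = 6.2e-05) and lower than MHCIIlo by −1.34 (SE 0.25, adjusted p = 0.0010). Another Rps19 probe, A_51_P337290, gave −1.74 against MHCIIhi and −0.20 against MHCIIlo. By that probe kidney (3.36, 2.99 and 2.76) and MHCIIlo cells (3.73, 2.89 and 3.09) overlapped. Rps26, which lies where mRNA leaves the small subunit, stood at 6.91, 7.08 and 6.64 in MHCIIhi cells, 6.14, 5.59 and 5.74 in MHCIIlo cells and 4.87, 4.84 and 4.62 in kidney cells. Its kidney minus MHCIIhi difference was −2.10 (SE 0.20, adjusted p = 2.4e-05).

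Rpl31 and Rpl39, both at the tunnel through which the new protein leaves, differed by −2.11 (SE 0.25, adjusted p = 8.9e-05) and −1.89 (SE 0.25, adjusted p = 0.00016), respectively. Rpl14 differed by −2.04, Rpl12 by −1.98, Rps12 by −1.84 and Rps18 by −1.76, each called. Relative to the family, 8 members departed further downward at the adjusted p alone, led by Rps19 (−0.88), Rpl31 (−0.80) and Rps26 (−0.79), and 4 upward, against 9.72% and 66.4% of all genes. Upward, Rps21 (0.48) and Rps19bp1 (0.88, by its brighter probe) stayed under a size of 1. Rpl3l was the only member to reach that size upward, and 0 did so downward, against 57.9% and 8.3% of all genes.

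The kidney and MHCIIlo groups differed less, and in a direction that turned with the scaling: the members' median difference was −0.48 by the 75th percentile and 0.52 after quantile normalization. By the 75th percentile 13 members were lower and 1 higher in kidney cells, against 27.4% and 30.5% of all genes, so that fewer members than genes in general were called either way. At the adjusted p alone 40 were lower and 1 higher, against 35% and 37.7%. After quantile normalization 1 was lower and 10 higher, and the share of all genes called was not counted there. By the 75th percentile the difference was positive for 12 members, as for 51.5% of all genes. Relative to the median of all genes tested, the members' median stood at −0.56 by the 75th percentile, at 0.30 after quantile normalization and at 0.52 with normexp background correction. The normexp correction added an offset of 50 units, and the part of the offset in this value was not tested. The groups did not overlap for 52 of the 82 members (63.4%), against 78.4% of all genes.

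Rpl21 was furthest below MHCIIlo in kidney cells by its probe of 75% G and C (−2.66), and above it by its other probe (1.02). Rps12 came next. It stood at 9.46, 9.24 and 9.60 in MHCIIhi cells, 9.32, 8.98 and 9.37 in MHCIIlo cells and 7.74, 7.60 and 7.43 in kidney cells. The intestinal groups overlapped, and kidney lay below both, by −1.63 (SE 0.18, adjusted p = 5.2e-05) against MHCIIlo. Rpl41 (−1.29), Rpl38 (−1.22), Rpl22 (−1.20), Rpl37a (−1.18), Rps27l (−1.06) and Rplp1 (−1.04) were also called. After quantile normalization Rpl41 (0.05), Rpl37a (0.19) and Rplp1 (0.37) had small positive differences that did not pass the test. The comparisons share arrays, and no relation between them was tested.

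Measured against the family median, 15 members departed upward in kidney minus MHCIIlo and 18 downward at the adjusted p alone, against 46.2% and 23.4% of all genes. Upward, Rpl7l1 (0.98, adjusted p = 0.0046), Rps6 (0.89, adjusted p = 0.0023), Rpl27a (0.79, adjusted p = 0.0049) and Rps21 (0.71, adjusted p = 0.0030) followed Rpl3l, the only one to reach a size of 1, which 38.9% of all genes did. Downward, Rpl21 (−2.20, by the probe that its other probe contradicts) and Rps12 (−1.17, adjusted p = 0.0016) reached that size, against 19.9% of all genes, followed by Rps19 (−0.87) and Rpl41 (−0.83). For Rps19, probe A_51_P337290 gave a kidney minus MHCIIlo difference of only −0.20. The upward departure of Rpl27a is that of its brighter probe, which put kidney above MHCIIlo by 0.32 in the mean. Its other probe, A_51_P418662, put kidney below MHCIIlo, and departure from the family by that probe was not tested.

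Among the paralogs, Rpl3l had a pattern of its own. Rpl3l replaces Rpl3 in ribosomes of heart and skeletal muscle. Its probe, at chr17:24463068-24463336 in the mm8 annotation, was not well above background on any intestinal array, with processed signals of 3.10, 3.00 and 2.98 units in MHCIIhi cells and 1.86, 1.55 and 5.36 in MHCIIlo cells. In kidney cells it gave 107, 135 and 164 units, above background on 3 of 3 arrays. Kidney was at least 6.26-fold higher than MHCIIhi and at least 3-fold higher than MHCIIlo cells. Rpl3l passed the filter through kidney, the group where it is high, so that its call is no support for a difference. With normexp background correction and its offset of 50 units it was called in neither comparison. The differences were then 0.58 for kidney minus MHCIIhi and −0.26 for kidney minus MHCIIlo. Rpl3 itself was lower in kidney than in MHCIIhi cells by −1.32 (SE 0.30, adjusted p = 0.0040).

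The other paralogs stayed closer to the family. Rpl7l1, related to Rpl7, stood at 1.22, 1.39 and 0.56 in MHCIIhi cells, 0.38, −0.79 and −0.32 in MHCIIlo cells and 0.50, 0.14 and 0.20 in kidney cells, and was higher in MHCIIhi than in MHCIIlo cells by 1.30 (SE 0.32, adjusted p = 0.012). Rpl36al differed by 0.82 (SE 0.22, adjusted p = 0.017) and Rpl22l1, by its brighter probe, by 0.94 (SE 0.22, adjusted p = 0.0094) in the same direction. Rps27l stood at 5.93, 6.10 and 5.89 in MHCIIhi cells and at 6.07, 5.75 and 5.75 in MHCIIlo cells, which overlapped.

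The ribosomal proteins whose names the rule misses were split. Rpsa was higher in MHCIIhi than in MHCIIlo cells by 1.53 (adjusted p = 0.0021) and Rack1 by 0.95 (adjusted p = 0.0044). Rack1 is listed on the array as Gnb2l1. Fau, which encodes a ribosomal protein fused to a ubiquitin-like protein, was lower in MHCIIhi cells at the adjusted p alone. Fau stood at 8.53, 8.55 and 8.89 in MHCIIhi cells, 9.33, 9.52 and 9.77 in MHCIIlo cells and 7.49, 7.36 and 6.89 in kidney cells, with a difference of −0.88 (adjusted p = 0.011) between the intestinal groups. The Fau probe held 48.3% G and C, below the share of the discordant member probes.

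Of 70 ribosome assembly factors tested, 61 were higher in MHCIIhi than in MHCIIlo cells and 0 lower, beside 15.1% and 16% of all genes, with a median difference of 2.13. Gnl3, the nucleolar protein nucleostemin, was higher by 3.21 (adjusted p = 0.00028). Gar1, a protein of the pseudouridylation complexes, and Rrp15 were called too, but were above background on only 2 and 1 of the 3 MHCIIlo arrays. Of 14 RNA polymerase I genes 7 were higher and 0 lower, among them Polr1b, the second largest subunit (3.30), and at the adjusted p alone 11 were higher and 1 lower. Polr1e was called, but was above background on 0 of 3 MHCIIlo arrays. Of 37 initiation factors 9 were higher and 0 lower, and at the adjusted p alone 18 were higher and 2 lower. At the adjusted p alone, 21.8% of all genes were higher and 28.2% lower. Of 10 elongation and termination factors 4 were higher and 0 lower.

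Between kidney and MHCIIlo cells, 35 of the 70 assembly factors were higher and 3 lower in kidney, beside 30.5% and 27.4% of all genes, with a median of 1.03. Against MHCIIhi cells, 35 assembly factors were lower in kidney and 0 higher, beside 22.6% and 26.1%. Among other mRNAs known to carry a TOP tract, Npm1 was higher in MHCIIhi than in MHCIIlo cells by 2.41 (adjusted p = 0.00043) and Hnrnpa1 by 2.17 (adjusted p = 0.00093), whereas Tpt1 (0.03, adjusted p = 0.87) and Pabpc1 (0.22, adjusted p = 0.30) did not pass the test. Of the 7 such genes, 3 were higher and 0 lower. Of 78 mitochondrial ribosomal proteins, which share no subunit with the cytosolic ribosome, 21 were higher in MHCIIhi than in MHCIIlo cells and 0 lower, with a median of 0.60. Over all genes tested, 15.1% were higher and 16% lower in that comparison, with a median of −0.23.

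Markers of other cells moved with these groups. All 9 markers of dividing cells were higher in MHCIIhi than in MHCIIlo cells, with a median of 4.42, and 6 of the 9 were above background on at least 2 MHCIIlo arrays. Their summed level was 5.77 to 6.68 in MHCIIhi, 3.09 to 4.01 in MHCIIlo and 3.01 to 3.15 in kidney cells. Of 4 crypt stem cell markers 3 were higher in MHCIIhi cells, and of 10 enterocyte markers 9 were lower, beside 15.1% and 16% of all genes. B cell and plasma cell markers had a summed level of 0.13 to 1.12 in MHCIIhi, 4.44 to 5.18 in MHCIIlo and −1.31 to −0.78 in kidney cells, with 6, 7 and 6 of 7 genes above background. Of these 7 genes 3 were lower in MHCIIhi than in MHCIIlo cells and 0 higher. Macrophage markers had summed levels of 6.62 to 7.44, 3.94 to 5.67 and 1.13 to 2.48 in the same order, which Lyz2 carried in the intestinal groups. Of the 6 tested, 1 was higher and 2 were lower in MHCIIhi than in MHCIIlo cells, with a median of 0.16, and C1qa was not above background in MHCIIlo cells. T cell markers had summed levels of 0.46 to 1.59, 2.38 to 3.32 and −0.60 to 0.41, and 6 of 7 tested were lower in MHCIIhi than in MHCIIlo cells. Fibroblast and smooth muscle markers had summed levels of 4.78 to 5.02, 5.59 to 6.06 and 3.46 to 4.15, which Acta2 carried. Of the 5 tested, 4 were lower in MHCIIhi than in MHCIIlo cells, and 3 were higher and 1 lower in kidney than in MHCIIhi cells. Pdgfra was not above background in any group. The part of these cells in the members' differences was not tested.

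The starts of the genes were compared in RefSeq promoters of build GRCm38.p6, from 250 bases before to 50 bases after the annotated start, which held 62 of the 82 members. A run of at least 8 C or T on the transcribed strand that touched the stretch from 20 bases before to 30 bases after the start was present in 67.7% of the 62 members and in 26.8% of all 27025 genes of the table. The same run on the other strand, read as G or A, was present in 14.5% and 30.6%. The motif CGGAAG, searched on both strands of the whole window, was present in 67.7% of members and 18.8% of all genes. Members with the run had a median MHCIIhi minus MHCIIlo difference of 0.93 (42 genes) and those without it 0.79 (20 genes). Promoters of members at the upper end (Rpl27a, Rps15a, Rps6 and Rpl12) and the lower end (Rpl38 and Rpl41) of that difference are shown. They reach from 30 bases before to 25 bases after the start, 5′ to 3′, with only the longest run in capitals. These members were chosen after the values were seen.

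Rpl27a (chr7:109519165-109519219, + strand): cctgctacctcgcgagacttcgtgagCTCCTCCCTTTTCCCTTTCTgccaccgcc
Rps15a (chr7:118116123-118116177, - strand): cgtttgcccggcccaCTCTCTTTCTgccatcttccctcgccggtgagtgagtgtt
Rps6 (chr4:86857343-86857397, - strand): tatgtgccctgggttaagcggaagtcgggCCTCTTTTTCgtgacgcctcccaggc
Rpl12 (chr2:32961682-32961736, + strand): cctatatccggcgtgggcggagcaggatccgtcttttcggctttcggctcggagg
Rpl38 (chr11:114668550-114668604, + strand): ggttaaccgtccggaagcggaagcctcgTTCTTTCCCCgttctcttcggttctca
Rpl41 (chr10:128549144-128549198, - strand): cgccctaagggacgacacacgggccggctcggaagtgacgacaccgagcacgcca

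A run was present in Rpl27a (longest 20 bases), Rps15a (10 bases), Rps6 (10 bases) and Rpl38 (10 bases). No run of at least 8 bases was in the searched stretch of Rpl12 and Rpl41. The run was thus present and missing at both ends of the order of differences. Rps15a and Rpl38 each held a further, shorter run of at least 8 bases, left in lower case. In Rps15a that shorter run spans the annotated start. The annotated start need not be the base where transcription begins in these cells.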

How the data were processed

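RNA of 9 samples was hybridised to 1-colour Agilent arrays with 45018 spots. The intensity values are the processed signals of Agilent Feature Extraction 10.5.1.1, background-subtracted per the file headers, with probe positions on mm8. The value table deposited by the authors holds a ratio, the processed signal over the median of its array (largest relative deviation 2.37e-05), and was an alternative. Log2 signals minus the 75th percentile of each array's non-control probes were fitted with limma 3.58.1 (R 4.3.3; lmFit and eBayes) on all 9 arrays, over genes that 1 or more groups showed well above background on each of their 3 arrays, with Benjamini-Hochberg adjustment. A gene was called at an adjusted p below 0.05 and a log2 difference of at least 1, and the fit was tested on simulated data. The number of arrays limits the precision. The members and gene lists were chosen with earlier results of these data known. Named members were those with the largest differences or departures per comparison, paralogs, stalk proteins, Rps27a and genes whose probes disagreed. Promoters are RefSeq sequences of GRCm38.p6, used apart from mm8 positions. Alternatives covered scaling, background correction, filters, probes, slide, replicate block and left-out replicates. Values of a few single genes are not reported here, though the genes are in all counts and medians.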

Additional observations from a re-analysis of the deposited data

How the results depend on the processing

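After quantile normalization 50 members were higher in MHCIIhi than in MHCIIlo cells (median 1.18, 1 departing from the family), 11 were lower in kidney than in MHCIIhi cells (median −0.64, 3 departing), and 10 were higher and 1 lower in kidney than in MHCIIlo cells, where the median turned to 0.52 (5 departing). In that comparison Rpl41 (0.052), Rpl37a (0.19) and Rplp1 (0.37) turned too. With normexp and its offset of 50 units, 56 members were higher in MHCIIhi than in MHCIIlo cells (median 1.18). It left 0 higher in kidney in either comparison and 2 lower in kidney than in MHCIIlo cells (median −0.057). There Rpl3l (−0.26), Polr1e (−0.25), Gar1 (−0.064) and Rps6ka2 (−1.20) turned in kidney minus MHCIIlo, and Rps6ka2 (−0.31) in kidney minus MHCIIhi. By the authors' value table the medians were −1.63 for kidney minus MHCIIhi and −0.78 for kidney minus MHCIIlo, with 28 lower in the latter. Among genes above background on all 9 arrays, which leaves out Rpl3l, 0 members were higher in kidney in either comparison, 1 departed in MHCIIhi minus MHCIIlo and 0 in kidney minus MHCIIhi. With the mean of a gene's probes 0 were lower in MHCIIhi than in MHCIIlo cells, 3 were higher in kidney than in MHCIIlo cells, and 4, 2 and 6 departed in MHCIIhi minus MHCIIlo, kidney minus MHCIIhi and kidney minus MHCIIlo. Then Rpl21 (0.017) turned in MHCIIhi minus MHCIIlo, and Rpl22 (0.45), Rps24 (1.73), Eif4a2 (−0.085) and Nolc1 (1.58) in kidney minus MHCIIlo. With Rpl21 by its other probe, an alternative chosen after seeing the data, Rpl21 was at 1.49 in MHCIIhi minus MHCIIlo and 1.02 in kidney minus MHCIIlo, 0 members were lower in MHCIIhi than in MHCIIlo cells (1 departing) and 2 were higher in kidney than in MHCIIlo cells. With slide as a fixed block 2 were higher, 0 lower and 0 departed in MHCIIhi minus MHCIIlo, and 1 departed with slide as a random block or in a fit of the 6 arrays alone. At the adjusted p alone 66 were higher in MHCIIhi than in MHCIIlo cells, 40 were lower in kidney than in MHCIIlo cells, and 22, 12 and 33 departed. With core members only, 0 were higher in kidney in either comparison. Apart from effects set by an alternative's own construction, the cause was not tested. The share of all genes called was counted only with the main processing, so the counts of the alternatives stand without it. With replicates left out in turn, 19 to 42 members were higher and 1 was lower in MHCIIhi minus MHCIIlo (median 0.80 to 1.03, 1 to 3 departing), 70 to 78 were lower and 1 higher in kidney minus MHCIIhi (median −1.49 to −1.28, 1 to 2 departing), and 9 to 16 were lower and 1 higher in kidney minus MHCIIlo (median −0.58 to −0.36, 3 to 6 departing). With the replicate block the counts stayed at 31 and 1, 1 and 75, and 1 and 13. Deviations of same-numbered arrays from their group means correlated at −0.34 to 0.28 over 9 pairs, so the numbers were not taken to pair the samples, and 2 of 9 arrays correlated best with their own number. Of the alternatives for single genes, 5142 kept direction and side of the threshold, 218 no longer passed it, 92 newly passed it and 15 turned.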
